A study of Mus musculus with 15 samples.

Results

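JMJD1A(H1122A) cells were compared with JMJD1A(WT) cells across all genes, with 3 RNA-seq libraries in each group, 6 of the 15 libraries of the series. Both groups were 3T3-L1 cells, a mouse preadipocyte line, that carried a retroviral short hairpin RNA against Jmjd1a (sh-Jmjd1a) and then received a second retrovirus with either JMJD1A(WT) or JMJD1A(H1122A), in which the histidine of the iron-binding site is replaced by alanine. Cells were collected on day 2 of differentiation, after induction with 1.67 µM insulin, 1 µM dexamethasone and 115 µg/mL IBMX. One more rescue group of 3 libraries, JMJD1A-KD cells with LacZ in place of JMJD1A, entered the same fit, and sh-Empty and sh-Jmjd1a cells without a rescue construct (3 libraries each) were fitted apart and are given beside the comparison. Each construct was carried by selected cells, and no source used here says whether the 3 libraries of a group go back to independent infections. Cell line differences and an effect of the mutation therefore cannot be told apart, and p-values measure only the spread between these libraries.

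JMJD1A, also named KDM3A, is a Jumonji-domain demethylase that removes methyl groups from lysine 9 of histone H3, a mark of silent chromatin. It uses ferrous iron, 2-oxoglutarate and oxygen, and the iron is held by histidine and acidic side chains of the catalytic domain. In 3T3-L1 cells the hormone mixture first induces C/EBPβ and C/EBPδ, which are followed by PPARγ and C/EBPα, and these induce the genes of lipid uptake, lipid storage and adipokine secretion.

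The mutated residue was located in the reference, since the comparison turns on this codon. The codon of Kdm3a altered in H1122A is CAC, histidine, in the reference, at chr6:71542140-71542142 on the minus strand of mm9 (NCBIM37, GENCODE M1). It lies in the coding sequence, in exon 23 of 27 of one coding transcript and in exon 22 of 26 of the other, both with 1323 residues. The 45 reference bases around it, at chr6:71542119-71542163 and written 5′ to 3′ on the coding strand, have this codon in capitals, and the aspartate codon gat of the same iron-binding motif follows after 1 codon.
Kdm3a, H1122A codon: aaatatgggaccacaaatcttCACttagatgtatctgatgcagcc

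Counts per library were 12673417 to 25523148 with JMJD1A(WT), replicate 3 being the deepest, 11738534 to 13874024 with JMJD1A(H1122A) and 14104133 to 15046646 with LacZ. Levels are given as CPM, counts scaled to a common library size with TMM factors. The first principal component of the 6 libraries held 66.7% of the variance and placed the 3 JMJD1A(H1122A) libraries at -13.8 to -12.7 and the 3 JMJD1A(WT) libraries at 12.2 to 14.3. Replicates differed by more than sampling noise (chi-square per degree of freedom of 2.37 to 4.89), and each was counted as 1 sample.

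Kdm3a was expressed from both constructs well above the LacZ level. It was at 1768, 1639 and 1662 CPM with JMJD1A(WT) and at 2288, 2199 and 2104 CPM with JMJD1A(H1122A), beside 119 ± 2.62 CPM (SD, n = 3) with LacZ. All 3 libraries of the mutant were above all 3 of the wild type. The log2 fold change of JMJD1A(H1122A) against JMJD1A(WT) was 0.38 (SE 0.0345, adjusted p = 3.94e-12 by the quasi-likelihood test of edgeR, Benjamini-Hochberg adjusted, as for every adjusted p here). The Kdm3a level was thus 1.3-fold higher with the mutant than with the wild type. The counts do not separate the endogenous from the introduced transcript and do not show the codon.

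Of 12557 genes tested, JMJD1A(H1122A) had a lower level of 1468 (11.7%) and a higher level of 1517 (12.1%) at an adjusted p under 0.05, in all 2985 genes (23.8%). The numbers in both directions were close, but the sizes were not. Among the lower genes 231 differed by at least 1 on the log2 scale and 74 by at least 2, while 31 of the higher genes differed by at least 1 and 3 by at least 2. Most of these were genes of low level. The median level was 2.98 CPM for the 231 and 2.42 CPM for the 31, beside 29.5 CPM for all genes. Of the 231, 20 were under 1 CPM and 119 at 1 to 5 CPM, and of the 31, 5 and 16. The median log2 fold change was -0.32 over the lower genes, 0.27 over the higher genes and -0.0012 over all genes. The 3 libraries of one group did not overlap with the 3 of the other for 1400 genes called lower and 1458 called higher, and for 37.1% of all genes. The called share depended on the level. It was 4.4% under 1 CPM, where called genes had a median absolute log2 fold change of 2.07, and 25.3% from 20 to 100 CPM, where that median was 0.272. At 100 CPM or more, 394 of 2189 genes were lower and 592 higher, with a median of 0.199.

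**Figure D1:**
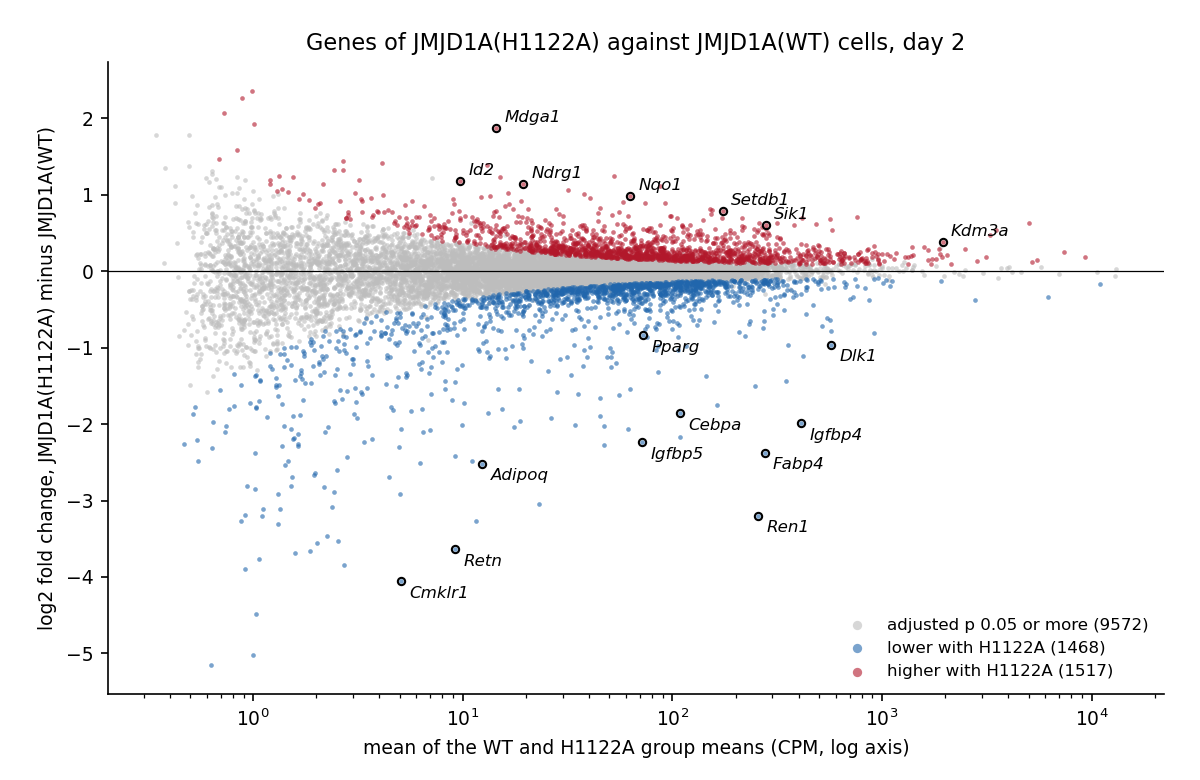
Log2 fold change of JMJD1A(H1122A) minus JMJD1A(WT) (y axis) against the mean of the group means in CPM (x axis, log scale) for 12557 genes, with called genes in blue (lower, 1468) and red (higher, 1517). The blue points reach further from 0 than the red ones, with 231 against 31 genes at 1 or more on the log2 scale.

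Among genes at a mean of at least 5 CPM, the largest decreases included receptors and secreted proteins of adipocytes. Cmklr1, the receptor of the adipokine chemerin, was at 9.40, 8.68 and 10.5 CPM with JMJD1A(WT) and at 0.548, 0.219 and 1.03 CPM with JMJD1A(H1122A). No library overlapped, and the log2 fold change was -4.05 (SE 0.285, adjusted p = 1.24e-15). It rests on 3 to 12 counts in the mutant libraries. Retn, the gene of resistin, was at 17.4, 18.4 and 15.3 CPM against 1.57, 1.24 and 1.20 CPM, 12.4-fold lower (log2 fold change -3.64, SE 0.198). Ren1, the gene of renin, was at 465, 490 and 437 CPM against 54.6, 48.8 and 47.9 CPM. Its change of -3.20 on the log2 scale had the smallest error of these genes (SE 0.0519, adjusted p = 2.26e-39), and its LacZ level was 109 ± 1.34 CPM (SD, n = 3). Mouse strains differ in carrying a near-identical second renin gene, and reads from such a copy would be counted under Ren1.

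Other genes among the largest decreases were AU015836 (-3.26), Adamts15, a secreted matrix protease (-3.05), Wfdc12 (-2.91), Adipoq, the gene of adiponectin (-2.52), Slpi, a secreted protease inhibitor (-2.48), and Des, the intermediate filament protein desmin (-2.42). Wfdc12 and Slpi encode proteins of the same small inhibitor family and lie on chromosome 2. Wfdc3, which shares the symbol stem of Wfdc12, went the other way (1.39). Adamts15 was at 46.3, 40.9 and 36.5 CPM with JMJD1A(WT) and at 5.87, 4.74 and 4.03 CPM with JMJD1A(H1122A).

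The increases were smaller at the same level. Mdga1, which encodes a membrane-anchored adhesion protein, was at 6.02, 6.10 and 6.30 CPM with JMJD1A(WT) and at 24.1, 20.4 and 23.5 CPM with JMJD1A(H1122A), with a log2 fold change of 1.87 (SE 0.134, adjusted p = 2.29e-15). After it came Wfdc3 (1.39), Casp4 (1.24), Zfp469 (1.24), Id2 (1.18), Ndrg1 (1.14), Adh7 (1.11), Casp12 (1.06), Tnfrsf23 (1.02) and Paqr8 (1.00). Casp4 and Casp12, which encode inflammatory caspases, are neighbours on chromosome 9. Casp4 was at 31.0, 29.9 and 32.3 CPM against 70.0, 76.5 and 75.5 CPM. The LacZ level stood between the wild type and the mutant for all 10 of these genes.

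The transcription factors of adipogenesis were not changed as one group. Of 29 tested members of the list of adipogenic factors and coregulators, 10 were lower with JMJD1A(H1122A) and 5 were higher, with a median log2 fold change of -0.093. Over all genes, to be set beside this and every list below, 11.7% were lower and 12.1% higher. Cebpa, the gene of C/EBPα, was at 175, 171 and 165 CPM with JMJD1A(WT) and at 45.3, 43.5 and 52.1 CPM with JMJD1A(H1122A). It was 3.63-fold lower (log2 fold change -1.86, SE 0.0576, adjusted p = 2.51e-28). Pparg, the gene of PPARγ, was at 94.9, 97.2 and 87.9 CPM against 50.27, 54.97 and 50.04 CPM, a log2 fold change of -0.84 (SE 0.0607). The groups did not overlap for either gene. In bulk RNA, fewer cells that express a gene and less RNA per cell cannot be told apart.

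The factors of the first wave differed from these. Cebpb was at 378, 361 and 437 CPM with JMJD1A(WT) and at 292, 334 and 374 CPM with JMJD1A(H1122A), so the groups overlapped and the gene did not pass the test (log2 fold change -0.24, SE 0.205, adjusted p = 0.487). Cebpd was higher with the mutant, at 433, 418 and 458 CPM against 537, 511 and 618 CPM (log2 fold change 0.34). Cebpg was lower by 0.52 and Nr1h3, the gene of the oxysterol receptor LXRα, was lower by 0.74. Zfp423, a zinc finger factor of preadipocyte commitment, was at 27.3, 24.4 and 25.7 CPM against 12.3, 13.2 and 13.2 CPM. Klf15 and Ppargc1b, both at a mean under 5 CPM and chosen after their values were seen, were lower by 3.11 and 1.81.

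Adipokines and other secreted products of adipocytes had the largest median change among the adipocyte lists. Of 15 tested members, 13 were lower (86.7%, beside 11.7% of all genes) and 1 was higher, with a median log2 fold change of -1.58. Adipoq was at 22.5, 22.2 and 18.9 CPM with JMJD1A(WT) and at 3.13, 4.08 and 3.60 CPM with JMJD1A(H1122A), 5.74-fold lower. Agt, which encodes angiotensinogen, the substrate of renin, was at 264, 264 and 227 CPM against 78.9, 72.8 and 71.0 CPM (log2 fold change -1.75, SE 0.055). C3, the complement component, was lower by 0.81 and Lcn2, lipocalin 2, by 0.37. The member that was higher was Metrnl, at 0.54. Of 4 tested receptor genes, Cmklr1, Adipor2 (-0.51) and Insr (-0.18) were lower.

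Genes of the lipid droplet and of lipolysis were lower for the proteins of the mature adipocyte. Of 12 tested lipid droplet genes, 6 were lower and 1 was higher, with a median of -0.34. Cidec, which enlarges lipid droplets, was at 81.4, 77.7 and 74.7 CPM with JMJD1A(WT) and at 14.88, 15.97 and 17.39 CPM with JMJD1A(H1122A). Plin1, the perilipin of the adipocyte droplet, had a log2 fold change of -1.66 and Plin4 one of -1.32, while Plin3 was slightly higher at 0.14. All 7 tested lipolysis genes were lower, with a median of -0.66. They included Plaat3 (-1.45), Lipe, hormone-sensitive lipase (-0.85), Pnpla2, adipose triglyceride lipase (-0.49), and its activator Abhd5 (-0.15). Pde3b, the phosphodiesterase through which insulin restrains lipolysis, was lower by 0.44.

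Fatty acid uptake and binding followed the same direction. Of 18 tested genes, 10 were lower and 2 were higher, with a median of -0.30. Fabp4, the fatty acid binding protein of adipocytes, was at 483, 473 and 427 CPM with JMJD1A(WT), at 84.5, 85.7 and 96.5 CPM with JMJD1A(H1122A) and at 193 ± 7.71 CPM (SD, n = 3) with LacZ. The mutant libraries were thus below the LacZ mean as well as below the wild type (log2 fold change against wild type -2.37, SE 0.0511, adjusted p = 1.38e-31). Cavin2, a caveolar coat protein, had a log2 fold change of -1.92, Cd36, a fatty acid transporter, one of -1.54, and Acsl1, an acyl-CoA synthetase, one of -1.44. Vldlr (0.43) and Cav1 (0.19) were higher.

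Triglyceride synthesis was lower at both ends of the pathway. Of 16 tested genes 8 were lower and none was higher, with a median of -0.29. Dgat2, which adds the last acyl chain, was at 78.2, 75.2 and 74.0 CPM against 16.7, 18.2 and 20.8 CPM, 4.09-fold lower, and Dgat1 was 2.04-fold lower. The acyltransferases of the earlier steps, Agpat2 (-1.60) and Gpat3 (-1.20), the phosphatidate phosphatase Lpin1 (-0.72) and Gpd1, which makes glycerol phosphate (-1.83), were lower too. The other 8 genes did not pass the test. Among them Gpat4, Agpat1 and Agpat3, chosen after their values were seen, had log2 fold changes of 0.03, 0.05 and 0.07.

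De novo fatty acid synthesis was split. Of 20 tested genes 9 were lower and 3 higher, with a median of -0.14. Scd1, stearoyl-CoA desaturase, was at 301, 300 and 260 CPM with JMJD1A(WT) and at 184, 182 and 167 CPM with JMJD1A(H1122A), a log2 fold change of -0.68. Fasn, fatty acid synthase, was at 893, 825 and 875 CPM against 868, 826 and 827 CPM, so the groups overlapped, and it did not pass the test (log2 fold change -0.041, SE 0.0534). Elovl5 (0.49) and Fads2 (0.36), enzymes of polyunsaturated fatty acid synthesis, were higher. Srebf1, the regulator of this pathway, was lower by 0.20.

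Cholesterol synthesis and uptake genes were lower in 13 of 24 tested members and higher in 1, Dhcr7 (0.32), with a median of -0.31. Cyp51 (-0.86), Insig1 (-0.73) and Idi1 (-0.48) were lower. Srebf2, the regulator of the pathway, did not pass the test, with a log2 fold change of 0.05. Cyp51 and Insig1 lie on chromosome 5, which is described separately, and without the genes of that chromosome 10 of 21 members were lower and the median was -0.091. Among sterol efflux and LXR target genes, 5 of 11 were lower, including Abca1 (-0.71), and 2 were higher.

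**Figure D2:**
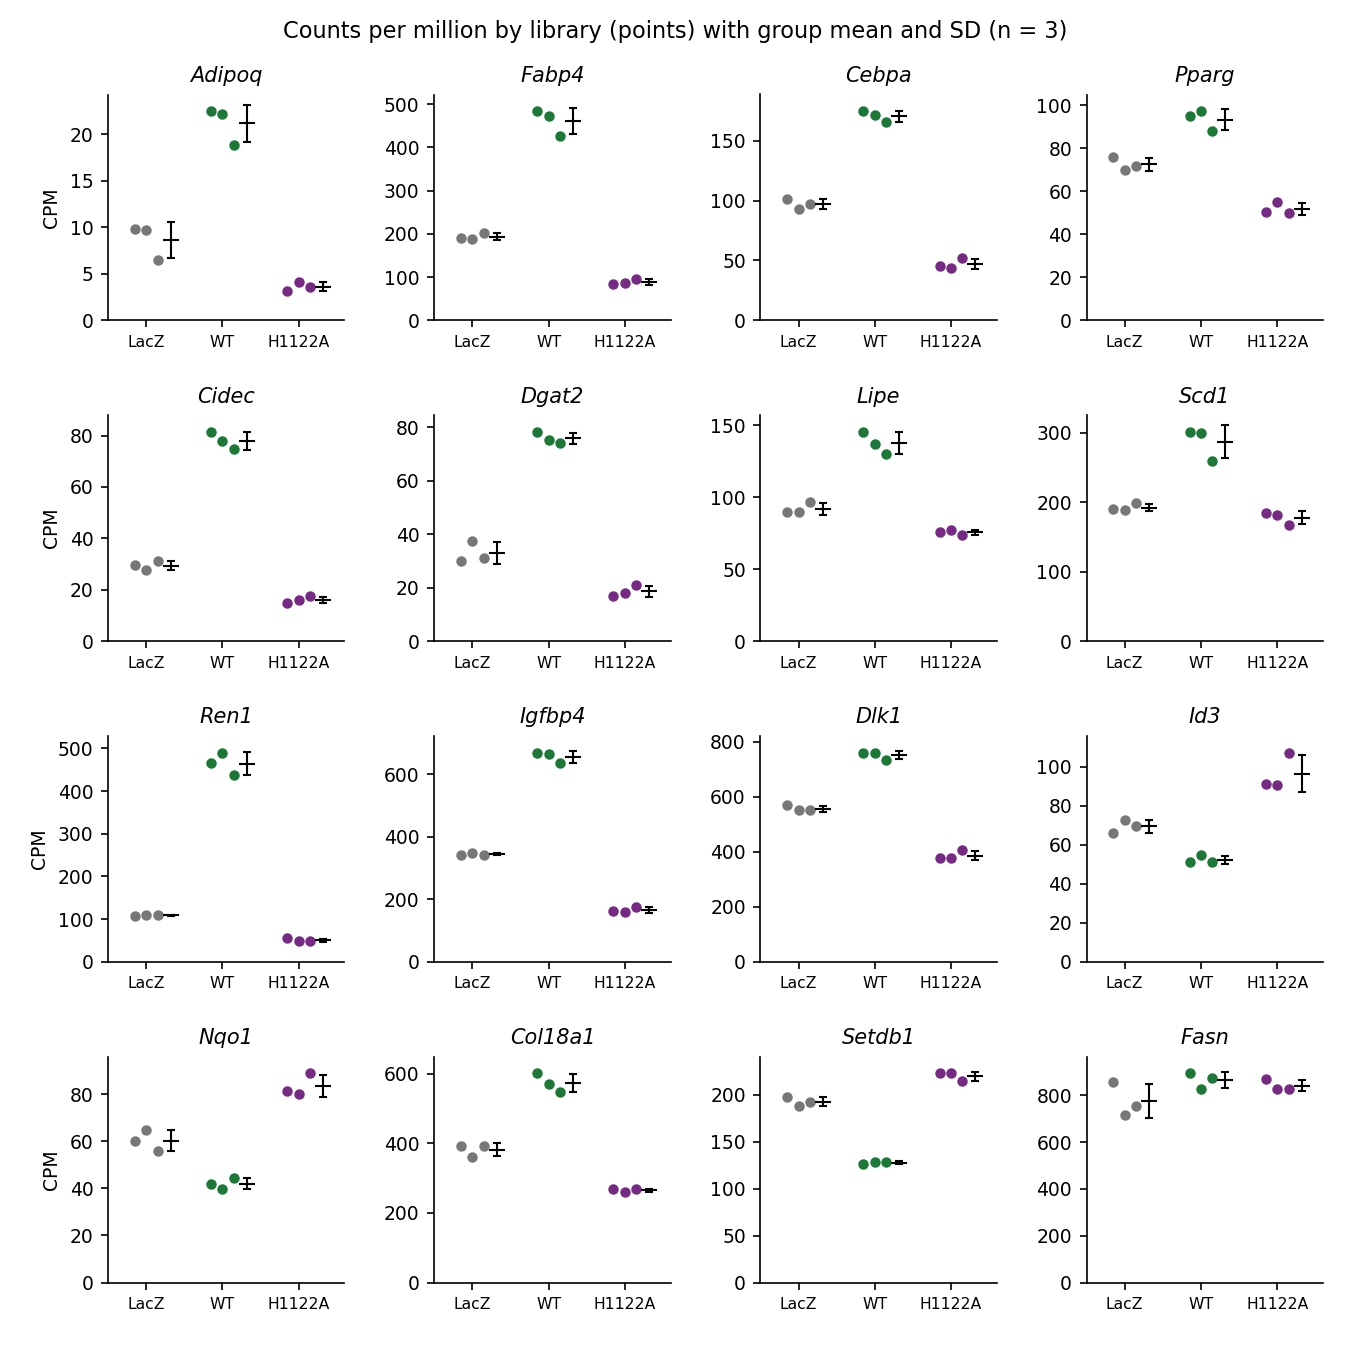
CPM in each of the 9 rescue libraries (points; grey LacZ, green JMJD1A(WT), purple JMJD1A(H1122A)) for 16 genes, each panel starting at 0, with the group mean and SD (n = 3) in black. Adipoq, Fabp4, Cebpa and Cidec show the mutant below LacZ and LacZ below the wild type, Id3 and Nqo1 the reverse order, and the Fasn groups overlap.

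Insulin signaling genes were lower in 10 of 19 tested members and higher in 2, with a median of -0.18. Sh2b2, an adaptor of the insulin receptor, was 1.84-fold lower. Irs2 (-0.28), Akt2 (-0.23) and Insr (-0.18) were lower by less, and Igf1 was higher (0.47). Slc2a4, the insulin-responsive glucose transporter GLUT4, and Igf2, both chosen after their values were seen, were lower by 3.20 and 3.84 at means under 5 CPM.

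Lists of mitochondrial genes differed in their called share. Of 27 tested genes of the citric acid cycle and pyruvate entry, 12 were lower (44.4%, beside 11.7% of all genes) and 1, Idh2 (0.35), was higher. Idh3a, a subunit of isocitrate dehydrogenase, was at 145, 158 and 139 CPM against 98.03, 104 and 91.5 CPM (log2 fold change -0.58), and Pcx, pyruvate carboxylase, was lower by 0.36. Of 71 nuclear-encoded respiratory chain subunits 11 were lower (15.5%, near the share of all genes), 2 were higher and 58 were not called, with a median of -0.024, and the largest of these changes was Cycs, cytochrome c, at -0.42. Without the genes of chromosome 5, 9 of 68 subunits were lower and the median was -0.016. Fatty acid oxidation genes were lower in 8 of 22 and higher in 3, or in 5 and 3 of 19 without chromosome 5, and genes of branched-chain amino acid breakdown were lower in 5 of 19, led by Aldh6a1 (-0.57). Of the 6 tested thermogenic genes 2 were lower and 1, Dio2 (0.53), was higher.

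Preadipocyte factors and inhibitors of adipogenesis were more often higher. Of 24 tested members 11 were higher (45.8%, beside 12.1% of all genes) and 3 were lower, with a median of 0.19. Without its 2 genes on chromosome 5 the median was 0.305, with 10 of 22 higher. Id3, an inhibitor of helix-loop-helix factors, was at 51.0, 54.6 and 51.2 CPM with JMJD1A(WT) and at 91.3, 90.8 and 107 CPM with JMJD1A(H1122A) (log2 fold change 0.89, SE 0.0627), and Id2 was at 5.22, 7.11 and 5.64 CPM against 13.5, 12.7 and 14.1 CPM. Cd24a (0.88), Twist2 (0.51), Snai2 (0.41) and Sox9 (0.38) were higher. Dlk1, the preadipocyte factor Pref-1, went the other way and was at 760, 760 and 735 CPM against 377, 376 and 406 CPM, a log2 fold change of -0.96 (SE 0.0368). Its LacZ level of 557 ± 10.9 CPM (SD, n = 3) stood between the groups.

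Wnt pathway genes were higher in 8 of 28 tested members and lower in 2, with a median of 0.13. Ror1, a Wnt receptor, was at 10.1, 7.43 and 9.37 CPM against 18.9, 17.6 and 17.2 CPM, and Apcdd1, a Wnt inhibitor, had a log2 fold change of 0.92. Wnt4 was lower by 0.69. Immediate early genes were higher in 12 of 27 and lower in 3. Sik1, a kinase induced by cAMP, was at 220, 219 and 223 CPM against 338, 330 and 338 CPM (log2 fold change 0.60, SE 0.0386), Fos had a log2 fold change of 0.69, and Nr4a1, an orphan nuclear receptor, one of 0.50. Actin, contractile and SRF or YAP target genes were higher in 11 of 25, led by Ccn1 (0.57) and Zyx (0.49), and lower in 3, with Mylk at -0.64.

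Matrix genes differed in both directions. Of 49 matrix proteins and matrix enzymes 20 were lower and 18 higher, and of 22 collagen chains 7 were lower and 5 higher. Spp1, osteopontin, was at 373, 373 and 357 CPM with JMJD1A(WT) and at 132, 128 and 127 CPM with JMJD1A(H1122A), a log2 fold change of -1.51 (SE 0.0424). Col18a1, a basement membrane collagen, was at 602, 572 and 548 CPM against 268, 260 and 268 CPM, 2.16-fold lower, and the basement membrane protein Nid2 was 2.17-fold lower. Among fibrillar and elastic matrix genes chosen after their values were seen, Lox, the crosslinking enzyme lysyl oxidase, had a log2 fold change of 0.71 and Mmp2, a gelatinase, one of 0.63.

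The list of IGF binding proteins, serpins and the plasminogen system had calls in both directions, with 5 of 12 tested genes lower and 3 higher and a median of -0.092. Igfbp4 was at 668, 665 and 634 CPM against 161, 160 and 175 CPM, 3.97-fold lower (SE of the log2 fold change 0.0408, adjusted p = 2.29e-35), and Igfbp5 was at 124, 115 and 116 CPM against 24.4, 26.4 and 23.9 CPM, 4.73-fold lower. Serpine2, a protease inhibitor, was lower by 1.19. The higher genes included Plat, tissue plasminogen activator (0.51).

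Glutathione and NRF2 target genes were higher in 11 of 31 tested members and lower in 6. Nqo1, a quinone reductase, was at 41.7, 39.7 and 44.3 CPM with JMJD1A(WT) and at 81.3, 80.3 and 88.9 CPM with JMJD1A(H1122A), a log2 fold change of 0.98 (SE 0.0649). Gsta4 (0.98), Gstm1 (0.72) and Gclc, which sets the rate of glutathione synthesis (0.47), were higher, while Aifm2, a ferroptosis suppressor (-0.53), and Sod2, the mitochondrial superoxide dismutase (-0.34), were lower. The glutathione S-transferases belong to families of similar sequence, and the counting could assign their shared reads to either gene.

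Genes that write, erase or read methylation of lysine 9 of histone H3 were called in 7 of 20 members, 3 lower and 4 higher. Setdb1, a methyltransferase for this residue, was at 126, 129 and 129 CPM with JMJD1A(WT) and at 223, 223 and 214 CPM with JMJD1A(H1122A), a log2 fold change of 0.78 (SE 0.0429, adjusted p = 2.81e-19). The difference in CPM was many times the spread within a group. Its LacZ level, 193 ± 4.49 CPM (SD, n = 3), was nearer to the mutant. Its partner Atf7ip was lower by 0.31. Kdm3b, the closest relative of Kdm3a, was at 88.9, 75.9 and 83.5 CPM against 103, 96.5 and 93.7 CPM (log2 fold change 0.24), and Kdm4b, another demethylase, was higher by 0.28. The HP1 gene Cbx5 was lower by 0.25. Iron uptake, storage and sensing genes were lower in 6 of 23 and higher in 5. Tfrc, the transferrin receptor, was at 161, 159 and 161 CPM against 136, 130 and 138 CPM, and Heph, a ferroxidase, was 2.16-fold lower.

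Cytosolic ribosomal protein genes differed by little but nearly all the same way. Of 50 tested genes 41 were higher with JMJD1A(H1122A) (82.0%, beside 12.1% of all genes) and none was lower, with a median log2 fold change of 0.16 and a range from -0.098 to 0.32. Rpl11 was at 425, 413 and 407 CPM against 499, 486 and 570 CPM, and Rpl13 was at 765, 769 and 785 CPM against 897, 922 and 1007 CPM. Calls were more frequent at such levels, with 592 of 2189 genes at 100 CPM or more higher and 394 lower. Many of these genes have processed pseudogenes, and reads shared with them could be counted under either.

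Proliferation genes were called at about the share of all genes, 23.8%, in both directions together, but the 2 lists leaned opposite ways. Of 31 mitosis genes 7 were higher (22.6%, beside 12.1% of all genes) and 1 lower (3.23%), with a median of 0.072. Mki67 did not pass the test, at 233, 212 and 232 CPM against 244, 237 and 225 CPM. Of 46 genes of DNA replication and the G1/S step 10 were lower (21.7%, beside 11.7% of all genes) and 4 higher (8.7%). The largest were Ccnd2, cyclin D2, at 731, 716 and 731 CPM against 417, 440 and 403 CPM (log2 fold change -0.79), and Pcna, the polymerase clamp, higher by 0.52. Interferon-stimulated and antigen presentation genes were lower in 6 of 39 (15.4%) and higher in 5 (12.8%), near the shares of all genes, with Samhd1 at 0.37.

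The other lists had calls in both directions, to be set beside 11.7% lower and 12.1% higher over all genes. Hypoxia response genes were higher in 5 of 17, led by Ndrg1, at 13.5, 12.3 and 11.1 CPM against 28.1, 26.2 and 25.2 CPM, and lower in 1, Egln3 (-0.20). Glycolysis genes were lower in 3 of 19, with Hk2 at -0.34, and higher in 5, with Eno1 at 0.23. Glucocorticoid targets were lower in 7 of 17, led by Zbtb16 (-1.54) and Hsd11b1 (-0.87), and higher in 5. Genes of the integrated stress response and serine synthesis were lower in 5 of 22 and higher in 8, those of the unfolded protein response lower in 4 of 20 and higher in 3, chemokine and interleukin genes lower in 3 of 24 and higher in 5, and clock genes lower in 2 of 16 and higher in 2.

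**Figure D3:**
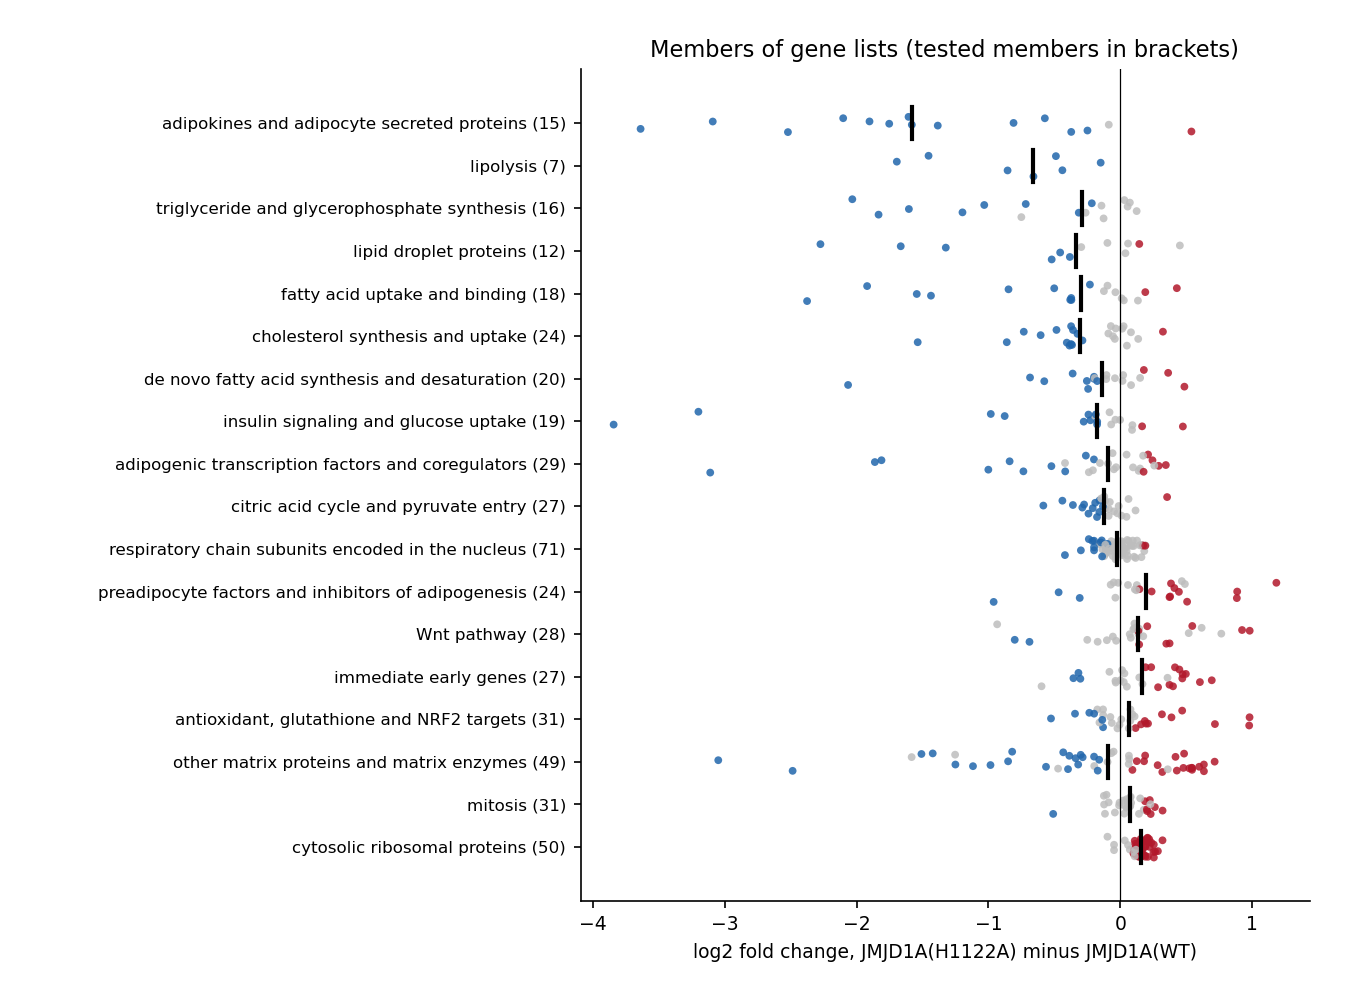
Log2 fold change of JMJD1A(H1122A) minus JMJD1A(WT) (x axis) for each tested member of 18 gene lists (rows; blue lower, red higher, grey not called; black bar, median). The medians run from -1.58 for adipokines to 0.19 for preadipocyte factors, and the matrix row spreads on both sides of 0.

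Markers of other cell types were checked in the same libraries. The 12 fibroblast and mesenchymal markers summed to 26700 to 28200 CPM of all counts with JMJD1A(WT) and to 28100 to 29300 with JMJD1A(H1122A), with 5 members higher and 1, Ly6a (-1.54), lower. The 7 adipocyte markers summed to 3840 to 4210 against 2570 to 2670, and to 3350 to 3440 with LacZ. These sums mostly follow Lpl, with 160648 counts over the 3 JMJD1A(WT) libraries and 92099 over the 3 JMJD1A(H1122A) libraries. Fabp4, the next largest, had 23621 and 3381 counts. Leukocyte markers summed to at most 5.37, endothelial markers to at most 1.55 and epithelial markers to at most 1.85 in any rescue library, with none of the last 2 lists tested. The 2 tested leukocyte markers, Cd68 (0.05) and Cd14 (0.39), and the 2 tested neural markers, which include Gap43 (-0.28), did not pass the test, and of 3 tested bone and cartilage markers Alpl was lower (-1.38) and Sox9 higher. The bone and cartilage list summed to 208 to 234 CPM with JMJD1A(WT) and to 259 to 278 CPM with JMJD1A(H1122A). The epithelial list summed to 0.901 to 1.85 CPM against 0.0 to 0.288 CPM. Skeletal muscle markers also differed between the groups. Des, Tnnt3 and Actn3, 3 tested of 10, were lower by 2.42, 2.82 and 2.67, and the list summed to at least 20.8 CPM with JMJD1A(WT) against 3.02 to 4.77 CPM with JMJD1A(H1122A), while the muscle regulators Myod1, Myog and Myf5 were at 0 counts in all 6 libraries. The part of other cell types in the results was not tested.

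The LacZ group gives the level of JMJD1A-KD cells without a JMJD1A construct. Of the 231 genes lower by at least 1 on the log2 scale, the LacZ mean stood between the mutant and the wild type for 208, at or below the mutant for 19 and at or above the wild type for 4. For the 31 higher genes it stood between for 29. These genes were chosen on the mutant and the wild type, so the counts are a description with no test.

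The knockdown itself, sh-Jmjd1a against sh-Empty, shares no library with this comparison. Kdm3a had a log2 fold change of -0.42 there (SE 0.0484, adjusted p = 2.91e-08), so the knockdown lowered its RNA only in part. In the rescue set the Kdm3a means were 1690 CPM with JMJD1A(WT) and 2197 CPM with JMJD1A(H1122A), against 119 CPM with LacZ. Of 12202 genes tested in both fits, 2910 (23.8%) were lower and 2738 (22.4%) higher in sh-Jmjd1a cells. Of the 1434 genes lower with JMJD1A(H1122A) among them, 787 were also lower in sh-Jmjd1a cells, which is 54.9% of the former and 27.0% of the latter, and 217 were higher. Of the 1511 genes higher with JMJD1A(H1122A), 730 were also higher in sh-Jmjd1a cells (48.3% of the former, 26.7% of the latter) and 224 were lower. Of the 197 genes lower by at least 1, 121 were lower and 29 higher in sh-Jmjd1a cells. Across genes, which are not independent, Pearson's r of the log2 fold changes was 0.294 and Spearman's rho 0.266.

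Of the 15 tested adipokine genes, 13 were lower and 1 higher with the mutant, and 11 were lower and 3 higher on knockdown. Retn had a log2 fold change of -3.64 with the mutant and -3.44 on knockdown, Fabp4 -2.37 and -1.87, Cebpa -1.86 and -1.35, and Pparg -0.84 and -0.89. Other members of the adipogenic and adipocyte lists were lower with the mutant and higher on knockdown. Among them were Serpina3n (-1.58 and 1.25), the preadipocyte factor Zfp423 (-1.001 and 0.551) and Pde3b (-0.44 and 1.16). Ren1 was lower by 3.20 with the mutant and by 0.40 on knockdown, and Cmklr1 by 4.05 and 0.79. The knockdown had more calls over all genes, with 23.8% lower and 22.4% higher of those tested in both fits. Its lists are to be set beside these shares. On knockdown 56 of the 71 respiratory chain subunits and 25 of the 27 citric acid cycle genes were lower. Mitosis genes (28 of 31 higher) and interferon-stimulated genes (29 of 39 higher) had most of their members called on knockdown. Between mutant and wild type 8 of the mitosis genes and 11 of the interferon-stimulated genes were called, beside 23.8% of all genes. Of the 50 ribosomal protein genes, 15 were lower and 2 higher on knockdown, beside 23.8% and 22.4% of all genes there. The difference between the comparisons was not tested.

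In all, 441 genes were called in opposite directions. Among those lower with the mutant and higher on knockdown, the largest changes with the mutant were in Igfbp5 (-2.24 and 2.91), Ctla2b (-2.01 and 1.20), Pde2a (-1.69 and 1.13), Pappa2 (-1.60 and 1.47) and Serpina3n (-1.58 and 1.25). Igfbp5 and Pappa2, a protease that cleaves IGF binding proteins, belong to the same hormone system. Among those higher with the mutant and lower on knockdown were Gsta4 (0.98 and -0.65), Id3 (0.89 and -0.25), Cd24a (0.88 and -0.76), Ugt1a6b (0.86 and -0.45) and Setdb1 (0.78 and -0.42). Ctla2b, Serpina3n and Ugt1a6b have near-identical relatives, so their counts are uncertain. Beyond these, Col11a1, a fibrillar collagen, was lower by 0.96 with the mutant and higher by 1.72 on knockdown.

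**Figure D4:**
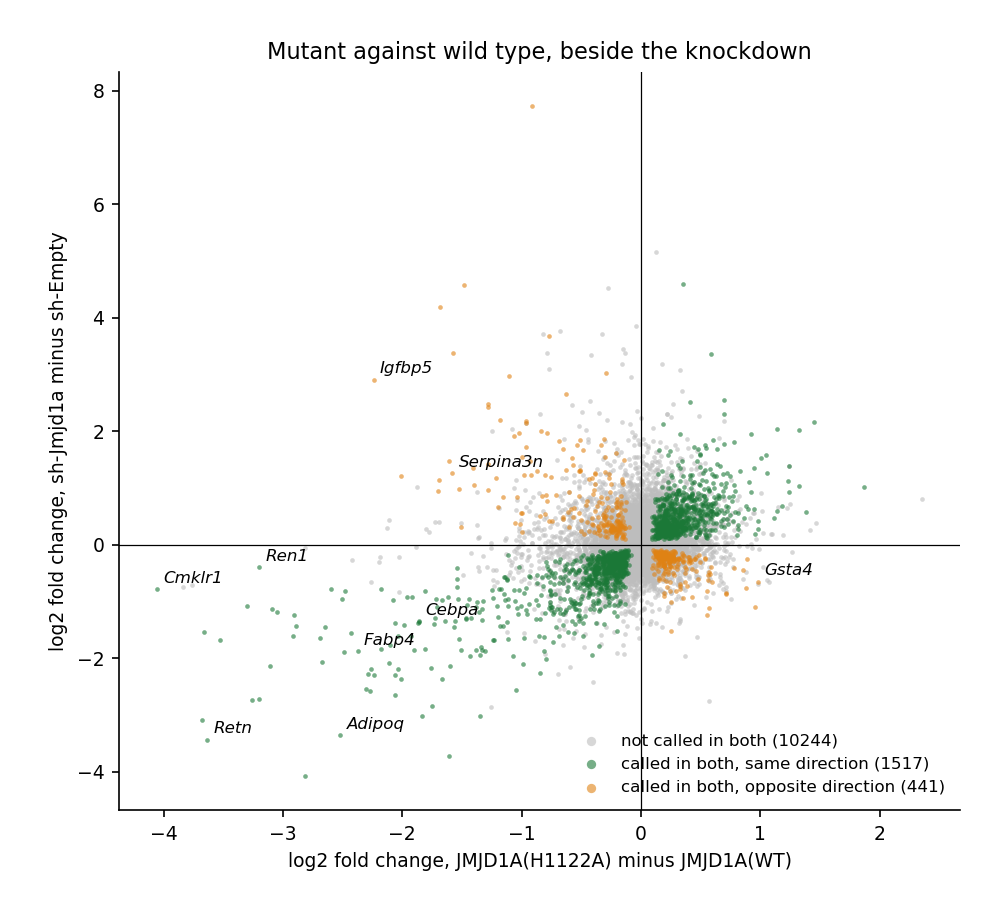
Log2 fold change of JMJD1A(H1122A) minus JMJD1A(WT) (x axis) against that of sh-Jmjd1a minus sh-Empty (y axis) for 12202 genes tested in both. Green points are called in both in the same direction, orange points (441) in opposite directions, and Igfbp5 lies far into the upper left.

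Calls were not spread evenly over the chromosomes. On chromosome 5, 168 of 745 tested genes were lower (22.6%) and 37 were higher (4.97%), with a median log2 fold change of -0.096. On the other autosomes and the X the lower share was 8.14% to 16.2%, the higher share 9.09% to 17.3% and the median -0.031 to 0.050. The shift ran along the whole chromosome. In each of 16 windows of 10 Mb, with 6 to 113 genes, the median was below 0 and more genes were lower than higher.

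The shift was present in every library. For 642 genes of chromosome 5 at a mean of at least 5 CPM, the median deviation on the log2 scale from the mean of the 9 rescue libraries was 0.048, 0.041 and 0.048 with JMJD1A(WT), -0.038, -0.043 and -0.034 with JMJD1A(H1122A), and -0.0059, -0.0039 and 0.0065 with LacZ. The ranges of the 3 groups did not overlap. They did not overlap on chromosomes 2, 4, 8, 9 and 18 either, in the reverse order and over a smaller span. On chromosome 18 the median was -0.0282 to -0.0168 with JMJD1A(WT) and 0.0264 to 0.0353 with JMJD1A(H1122A). Over the other autosomes single libraries ranged from -0.034 to 0.036. In the knockdown set the same median was 0.077, 0.070 and 0.085 in sh-Empty cells and -0.076, -0.078 and -0.087 in sh-Jmjd1a cells. There 298 of 736 genes of chromosome 5 were lower and 100 higher. The genes of the other chromosomes, pooled, were lower for 2542 and higher for 2536. Single libraries of the other autosomes ranged from -0.0308 to 0.0563 in sh-Empty cells and from -0.0567 to 0.0314 in sh-Jmjd1a cells. On chromosome 11 the median was 0.0516, 0.0472 and 0.0563 in sh-Empty cells and -0.041, -0.0435 and -0.0567 in sh-Jmjd1a cells. The X went the other way, with -0.0757, -0.0517 and -0.0611 in sh-Empty cells and 0.0581, 0.0656 and 0.0787 in sh-Jmjd1a cells.

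Genes named above that lie on chromosome 5 include Cmklr1, Cd36, Gpat3, Spp1, Cyp51 and Insig1, with log2 fold changes of -0.73 to -4.05. They were named for large changes, so their distance from the median of the chromosome follows from that choice. Of the genes lower by at least 1 on the log2 scale, 7.17% were on chromosome 5, which held 6.29% of the tested genes with a position. Of all lower calls 11.8% were on it and of all higher calls 2.5%. On the other chromosomes 1253 of 11100 genes were lower and 1444 higher. Chromosome copy number is not measured by these counts, and its part in the calls was not tested.

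**Figure D5:**
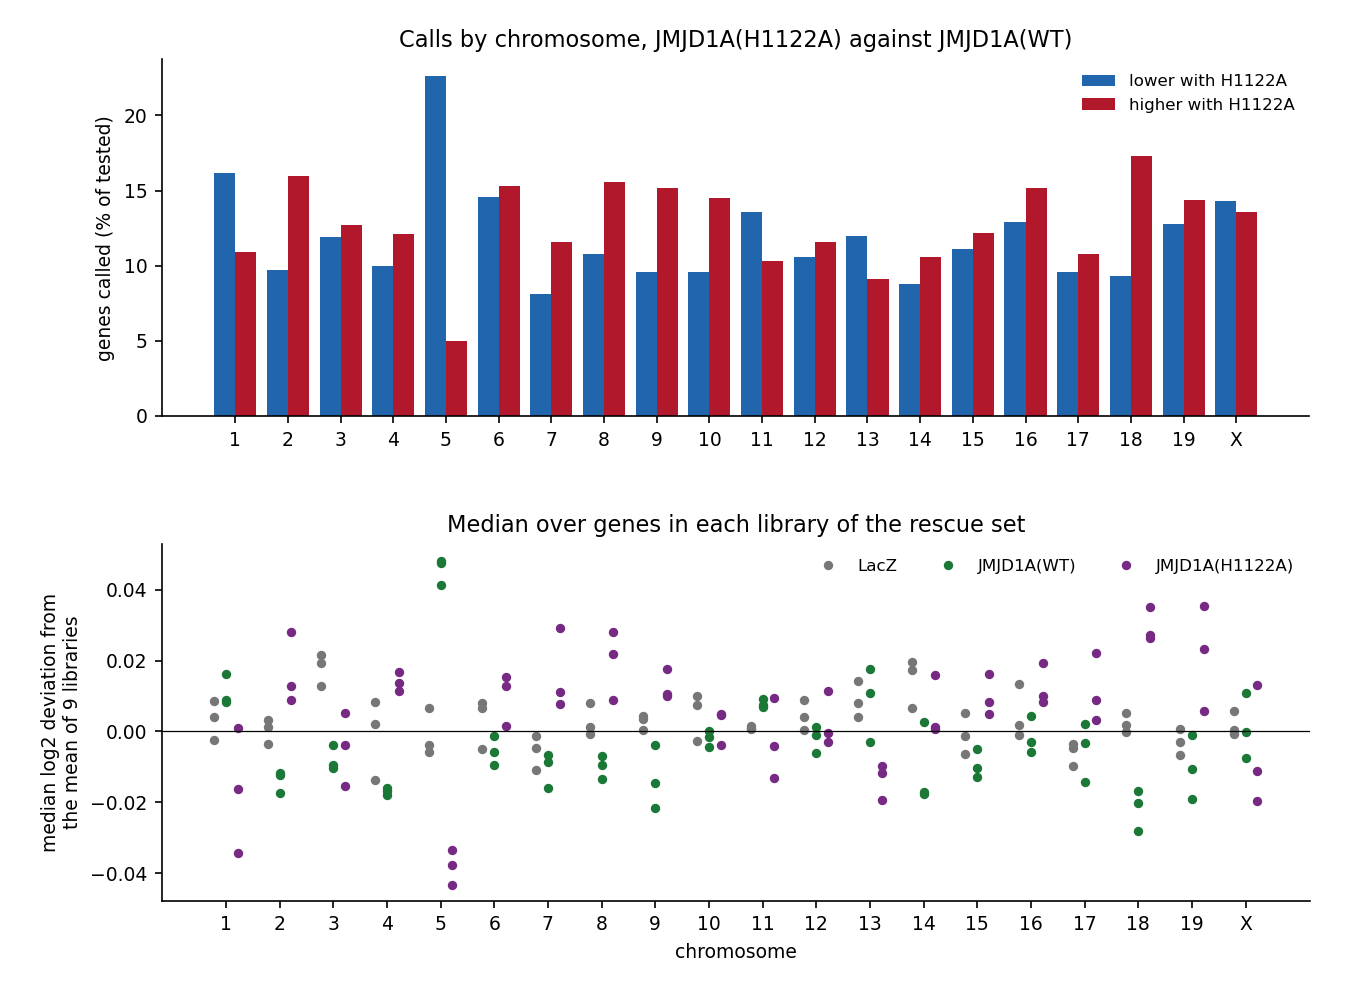
Top, percentage of tested genes called lower (blue) and higher (red) with JMJD1A(H1122A) on each chromosome. Bottom, median log2 deviation of the genes of each chromosome from the mean of the 9 rescue libraries, 1 point for each library; on chromosome 5 the JMJD1A(WT) libraries sit at 0.041 to 0.048 and the JMJD1A(H1122A) libraries at -0.043 to -0.034.

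Near the threshold, Lmnb1, which encodes lamin B1 (-0.17), and Tmem216 (-0.30) were just inside it, and Zfp334 (0.19) and Pld3 (0.13) just outside. The promoter motif search was void, because RefSeq windows (GRCm38.p6) were found for 9645 of the 12557 tested genes, 76.8%, under the 80% needed.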

How the data were processed

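Poly(A) RNA-seq counts were used. According to the study's methods and the submitters' processing notes, the authors used fastp for trimming, HISAT2 for alignment to mm9 and featureCounts for counting, and deposited raw counts per Entrez Gene number for each library, without normalization. The strand setting is not given in the sources used here, and the labels and the paper name different NEBNext kits, so reads of overlapping genes could be shared. Of 26301 gene numbers, 24191 had a symbol, and the rest held 0.5% of counts. Positions are from GENCODE M1 (NCBIM37).

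One fit over the 9 rescue libraries used edgeR 4.0.16 (R 4.3.3, TMM, filterByExpr with a minimum count of 10, robust quasi-likelihood fit with legacy=FALSE, no block, Benjamini-Hochberg threshold 0.05), and the method was tested on simulated data. Total counts of 11738534 to 25523148 per library limit precision for genes of few counts.

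Gene lists were described by counts and medians only. Named genes were Kdm3a, the 10 largest changes in each direction at 5 CPM or more without overlap, up to 6 members of each list at that level, genes that define a list, the 5 largest in each direction opposed to the knockdown, and those nearest the threshold. Some of these genes are not reported here. The lists and rules were chosen with earlier results of these data known.

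Alternatives were RLE, DESeq2 1.42.0, other filters, libraries and settings, a stricter threshold, a replicate block, thinning and leaving out libraries. Leaving out chromosome 5 was added after seeing the data.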

Additional observations from a re-analysis of the deposited data

How the results depend on the processing

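The numbers of genes lower and higher with JMJD1A(H1122A) stayed within 1.5 times the reported 1468 and 1517 under RLE size factors, DESeq2, no filter, a filter of 10 counts in every library, 6 or 15 libraries, the legacy method, a fit that was not robust, thinning, size factors without abundant genes, a threshold of 0.01 (983 and 1012) and without chromosome 5. Without one library at a time they were 1141 to 1526 and 1193 to 1643, and the genes past 1 on the log2 scale 223 to 253 lower and 27 to 43 higher. At least 10 counts in every library, which removes genes near 0 in the mutant, left 135 lower and 19 higher past that size. Genes also lower on knockdown were 628 to 801 without one library. Genes called in opposite directions were 344 to 461 without one library and 249 at a threshold of 0.01. The median of the 2 tested leukocyte markers, 0.22, ranged from -0.0011 to 0.332 with one JMJD1A(WT) library left out and was below 0 only without replicate 3. Of 224 named genes called, none changed sign and 24 lost the call under some alternative.

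Same-numbered libraries of the mutant and the wild type deviated together weakly at most (correlations of 0.055, 0.059 and 0.024, beside -0.064 to 0.018 for other pairs). The main fit did not pair them. With the replicate block 1610 genes were lower and 1673 higher, 1459 and 1512 of them shared with the fit without it. RLE and DESeq2 moved the median of all genes by less than 0.01.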
